A study of Homo sapiens with 6 samples.

Results

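Chromatin regions that carried an NRF2 peak in each of 4 ChIP-seq libraries, with or without the activating drug, are described here. Peaks of the 4 lists on chromosomes 1 to 22 and X were joined where they overlapped by at least 1 bp, which gave 19331 regions. Regions in a megabase that held more than 20 joined regions (a dense megabase) were set aside, which left 7386. Of these, 230 had a peak in every list. Listing in each library chose these regions, so their tags, enrichment and q values are given as a description, with no test. When the vehicle 1 list was not required the rule gave 546 regions, and when the vehicle 2 list was not required it gave 372.

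NRF2 was immunoprecipitated from HMC3, an established human microglial cell line with no engineered allele named in the labels. The groups, read from the sample titles, were 2 vehicle libraries and 2 libraries of cells given CDDO-Im, a synthetic triterpenoid that activates NRF2, (30 nM, 4 h). The labels repeat 1 treatment description for every sample, vehicle included. No label states that replicate libraries were separate cultures, and the spread between them may be technical. The 2 input samples were not analysed here, and peak lists hold no expression, so the microglial identity of the line could not be checked.

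NRF2 is a basic leucine zipper factor that KEAP1 holds in the cytoplasm and passes to the proteasome in unstressed cells. Electrophiles such as CDDO-Im modify KEAP1, and NRF2 then accumulates, pairs with a small MAF protein and binds antioxidant response elements (AREs). An ARE holds the core TGACNNNGC, in which N is any base, and often overlaps the AP-1 motif TGAGTCA. Genes with such elements serve heme breakdown, iron storage, glutathione synthesis, quinone reduction and NADPH supply.

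The bases under the summits could be read where a summit fell in a promoter window, the 250 bases before and 50 after a gene start in the RefSeq table (GRCh38.p14). The table has such windows for 79.2% of protein-coding genes. The summits of 6 of the 230 regions fell in one. They are shown because they let the motif be set against the summit. Capitals mark matches to the ARE core or to AP-1 on either strand, overlaps allowed, and each run is written 5′ to 3′ on the strand of its gene.

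The window of CYYR1-AS1, a long noncoding RNA gene, is chr21:26405693-26405992 on the plus strand.
CYYR1-AS1: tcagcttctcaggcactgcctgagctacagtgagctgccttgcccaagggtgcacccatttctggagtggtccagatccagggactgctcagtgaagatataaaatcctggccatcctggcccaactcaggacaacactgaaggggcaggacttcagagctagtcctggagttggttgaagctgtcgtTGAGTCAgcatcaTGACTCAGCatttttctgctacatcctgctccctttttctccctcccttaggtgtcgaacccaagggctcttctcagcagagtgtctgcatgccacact
The window of IFRD1, a gene of an interferon-related transcriptional coregulator, is chr7:112422924-112423223 on the plus strand.
IFRD1: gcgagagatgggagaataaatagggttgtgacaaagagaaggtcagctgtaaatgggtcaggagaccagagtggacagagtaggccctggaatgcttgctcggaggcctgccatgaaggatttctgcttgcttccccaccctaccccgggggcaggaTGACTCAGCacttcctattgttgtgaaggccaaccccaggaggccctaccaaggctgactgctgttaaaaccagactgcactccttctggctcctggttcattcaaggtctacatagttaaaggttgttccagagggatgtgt
LINC01270, the long noncoding RNA gene in the region whose nearest protein-coding gene is CEBPB, has the window chr20:50292470-50292769 on the plus strand.
LINC01270: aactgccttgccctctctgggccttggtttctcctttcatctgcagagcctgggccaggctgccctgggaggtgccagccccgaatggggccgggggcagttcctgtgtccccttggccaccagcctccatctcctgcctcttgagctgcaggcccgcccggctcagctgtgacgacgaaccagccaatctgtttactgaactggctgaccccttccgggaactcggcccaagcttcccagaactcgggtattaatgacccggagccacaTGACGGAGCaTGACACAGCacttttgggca
LOC124907747, a long noncoding RNA gene within CLIP4, has the window chr2:29130299-29130598 on the minus strand.
LOC124907747: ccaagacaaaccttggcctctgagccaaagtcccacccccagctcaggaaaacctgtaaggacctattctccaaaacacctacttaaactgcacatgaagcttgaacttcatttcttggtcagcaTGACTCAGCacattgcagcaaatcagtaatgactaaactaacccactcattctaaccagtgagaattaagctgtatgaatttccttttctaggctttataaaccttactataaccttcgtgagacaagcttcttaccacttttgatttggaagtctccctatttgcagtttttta
LOC105378512, a long noncoding RNA gene at the TIAL1 region, has the window chr10:119595314-119595613 on the plus strand.
LOC105378512: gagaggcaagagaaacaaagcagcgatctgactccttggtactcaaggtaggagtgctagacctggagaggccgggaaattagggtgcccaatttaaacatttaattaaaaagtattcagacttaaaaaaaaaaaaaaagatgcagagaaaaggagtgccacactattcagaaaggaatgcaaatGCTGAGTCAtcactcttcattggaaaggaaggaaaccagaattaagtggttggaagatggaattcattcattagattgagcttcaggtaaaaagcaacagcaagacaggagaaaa
PARP2, a gene of a poly(ADP-ribose) polymerase of DNA repair, has the window chr14:20343385-20343684 on the plus strand and no match.
PARP2: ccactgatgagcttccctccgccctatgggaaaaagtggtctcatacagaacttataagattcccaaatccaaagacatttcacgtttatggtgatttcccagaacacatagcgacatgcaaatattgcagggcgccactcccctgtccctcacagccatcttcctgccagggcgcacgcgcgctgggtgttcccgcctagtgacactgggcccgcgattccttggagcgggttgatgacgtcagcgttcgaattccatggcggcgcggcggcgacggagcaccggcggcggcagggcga

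The ARE core was present in 5 of these 6 windows, and the centre of the nearest match lay within 25 bp of the summit in each of the 5. Over all 35116 promoter windows of the table, 13.3% held the ARE core and 4.95% held AP-1. In CYYR1-AS1 the match TGACTCAGC had its centre at the summit base (distance 0 bp), with a second AP-1 match 14 bp away. The same letters stood 10 bp from the summit in IFRD1 and 11 bp from it in LOC124907747. In LINC01270 the adjoining matches TGACGGAGC and TGACACAGC lay 5 bp on either side of the summit. The LOC105378512 window held GCTGAGTCA, the core read from the other strand, 25 bp from the summit. TGACTCAGC and GCTGAGTCA carry the AP-1 motif within the ARE core, whereas the matches in LINC01270 do not. A match is a description of letters, not evidence of a site.

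The 5 regions with a match were those of the 6 with both CDDO-Im values above both vehicle values, and PARP2 was the exception. Among the 1428 regions of both CDDO-Im libraries and no vehicle library, 11 summits fell in a window, 9 of those windows held the core, and in 6 it lay within 25 bp of the summit. Regions of both CDDO-Im libraries and 1 vehicle library gave 4 summits in windows, of which 3 held the core, all within 25 bp. The 5270 other regions outside dense megabases gave 27 summits in windows. Of those windows 20 (74.1%) held the core, 13 of them within 25 bp, so the core was not particular to the regions described here. Numbers this small describe these windows and were not tested. The NQO1 and SQSTM1 regions overlapped their windows by 80 and 217 bp, and neither window held the core. Their summits lay upstream, 456 bp before the NQO1 start and 357 bp before the listed SQSTM1 start, so the bases beneath them were not read.

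The rule required a listed peak in both vehicle libraries, so signal in vehicle was fixed in advance. At most of the regions the signal was higher with CDDO-Im. Tags, the reads piled up at a summit, had a median of 11 and 13 in vehicle 1 and 2, and of 35 and 54.5 in CDDO-Im 1 and 2. Tags were divided by each library's genome-wide background, which lay between 0.315 and 0.367 tags and stands for depth. Both CDDO-Im libraries were above both vehicle libraries at 200 of the 230 regions. Over the 433 regions listed in all 4 libraries with dense megabases included, the share was 47.8%. Both were below at 9 regions, where the share over the 433 was 15.7%. The groups overlapped at 21 of the 230, against 158 of the 433.

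The ratio of CDDO-Im to vehicle (geometric means of tags over background) had a median of 3.21, with quartiles of 2.35 and 3.89 and a range from 0.764 to 6.47. It passed 2 at 192 regions, and at 145 even the lowest of the 4 pairwise library ratios passed 2. Over the 433 regions listed in all 4 libraries with dense megabases included, these counts were 193 and 146. CDDO-Im 2 stood above CDDO-Im 1 at 195 regions, with a median ratio of 1.40 between these replicates. Between vehicle 2 and vehicle 1 the median ratio was smaller, 1.13. Such a median shows a shift over the regions, not how well replicates agree region by region, for which correlations are given below. By pair of libraries, medians ran from 2.44 for CDDO-Im 1 over vehicle 2 to 4.04 for CDDO-Im 2 over vehicle 1. Low tags limit single values, since 5 tags have an exact 95% Poisson interval of 1.62 to 11.7, and such intervals cover counting error only.

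**Figure D1:**
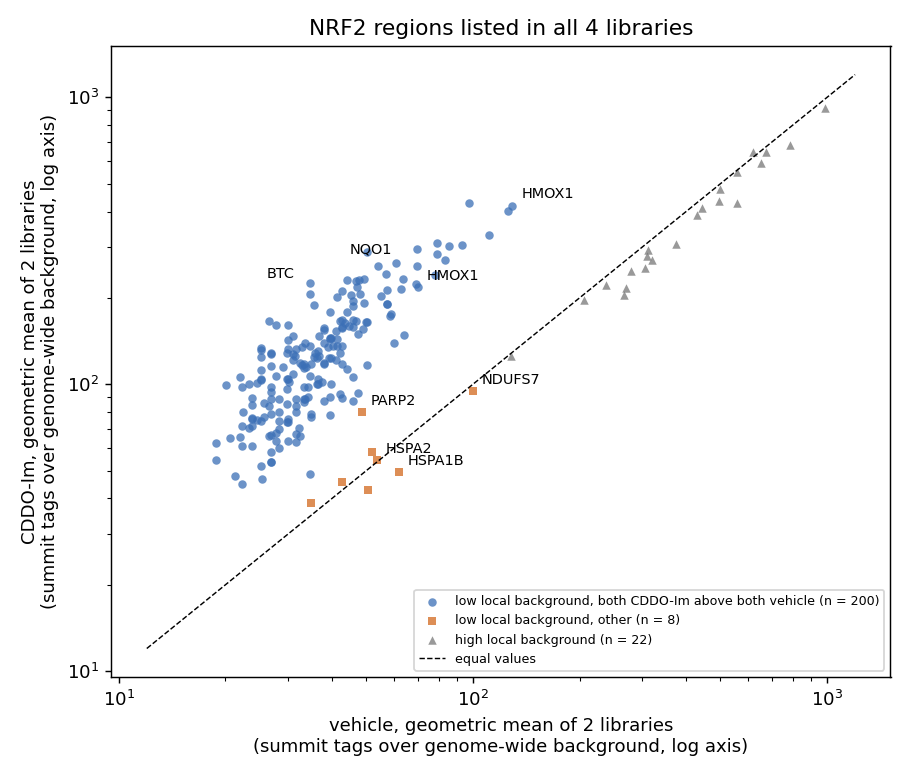
Each point is 1 of the 230 regions, with the geometric mean of tags over genome-wide background in the 2 vehicle libraries (x, log axis) and the 2 CDDO-Im libraries (y, log axis), and the dashed line marks equal values. The 200 circles, with both CDDO-Im libraries above both vehicle libraries, lie above the line, while the 8 squares and the 22 triangles of high local background lie near it.

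The regions fell into 2 kinds by their local background, the tags the peak caller set against each summit. In 208 regions it was at most 1.53 tags in any library, and in the other 22 it was at least 13.2 tags. The limit of 10 tags between them was chosen after the values were seen. Of the 208, 200 were higher in both CDDO-Im libraries, none was lower in both and 8 overlapped, and the median ratio was 3.33. Of the 22, none was higher, 9 were lower and 13 overlapped, and the median ratio was 0.908. The 203 regions of all 4 libraries in dense megabases had 7 higher and 59 lower, with a median ratio of 0.897, close to that of the 22.

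**Figure D2:**
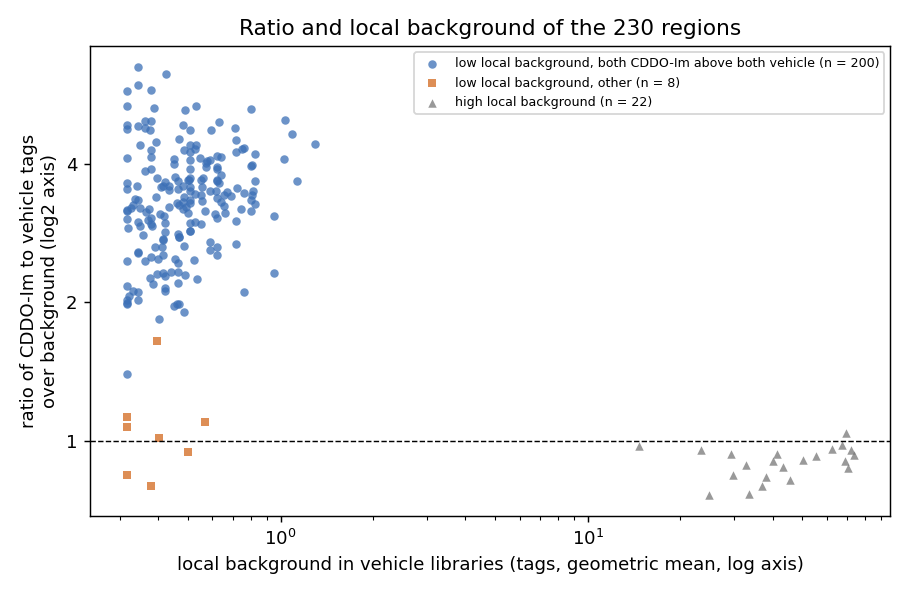
Each point is 1 of the 230 regions, with the local background in vehicle (tags, geometric mean of 2 libraries, log axis) on x and the ratio of CDDO-Im to vehicle tags over background (log2 axis) on y; the dashed line marks a ratio of 1. The 200 circles spread between ratios of 1.40 and 6.47 on the left, and the 22 triangles on the right keep between 0.764 and 1.04.

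HMOX1, the gene of heme oxygenase 1, which breaks down heme and is among the best known NRF2 targets, had 2 regions. The first, chr22:35371769-35372408, lay 8994 bp outside the gene and held 36 and 46 tags in vehicle and 114 and 188 tags in CDDO-Im. Both CDDO-Im libraries stood well above both vehicle libraries, with a ratio of 3.25 and pairwise ratios from 2.35 to 4.49. Its lowest deposited fold enrichment over the 4 libraries, 28.1, was the highest among the 230 regions. The second, chr22:35376864-35377373, lay 3974 bp outside the gene and held 22 and 22 tags in vehicle and 53 and 109 tags in CDDO-Im. Again the groups did not overlap, at a ratio of 3.12.

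Iron and heme handling had further members. At FTH1, the ferritin heavy chain that stores iron, a region 4415 bp outside the gene (chr11:61971835-61972288) held 12 and 17 tags in vehicle and 49 and 104 tags in CDDO-Im, a ratio of 4.51. Inside SLC48A1, the heme transporter HRG1, chr12:47775469-47775867 held 11 and 10 tags in vehicle and 22 and 44 tags in CDDO-Im, a ratio of 2.68. The groups did not overlap at either gene, and the 2 vehicle libraries lay closer together than the 2 CDDO-Im libraries. With HMOX1, 3 of the 13 genes of the heme and iron list had a region inside or within 10 kb.

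Detoxification was represented by NQO1 and AKR1C3, 2 of the 21 genes of that list. NQO1 encodes a quinone reductase, and chr16:69726731-69727237, outside the gene, held 12 and 20 tags in vehicle and 68 and 97 tags in CDDO-Im. The lowest CDDO-Im value was above both vehicle values, and the ratio was 4.73 with pairwise ratios from 3.22 to 6.94. Inside AKR1C3, an aldo-keto reductase, chr10:5071657-5072144 held 16 and 6 tags in vehicle and 38 and 70 tags in CDDO-Im. Its vehicle libraries stood far apart, which spread the pairwise ratios around 4.75 from 2.26 to 9.99.

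The pentose phosphate enzyme transketolase, TKT, was the 1 gene of 8 in the NADPH supply list. Its intragenic region chr3:53236143-53236609 held 10 and 12 tags in vehicle and 35 and 64 tags in CDDO-Im, without overlap, at a ratio of 3.90. SQSTM1 encodes p62, an autophagy receptor that binds KEAP1, and was 1 of 12 genes of the autophagy and proteasome list. Its region chr5:179820245-179820871 held 9 and 6 tags in vehicle and 23 and 53 tags in CDDO-Im. Vehicle 2 was the lowest library there and CDDO-Im 2 the highest, at a ratio of 4.29, and the region's lowest −log10 q of 1.87 was among the 5 lowest of the 230.

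Counted over 11 lists, 9 of 143 genes (6.29%) had a region inside or within 10 kb, against 159 of all 19974 protein-coding genes (0.796%). The lists were chosen with results of these data known, so this difference supports nothing about the regions. No gene had one in the lists for glutathione (0 of 19), thioredoxin (0 of 10), NRF2 pathway regulators (0 of 14), AP-1 factors (0 of 11), inflammation (0 of 13) or highly transcribed genes (0 of 12). When regions of both CDDO-Im libraries were counted whatever the vehicle lists held, 5 glutathione genes, 1 thioredoxin gene and 25 of the 143 had one, against 1153 of all protein-coding genes. None of the 9 microglial marker genes lay within 50 kb of one of the 230 regions, a distance at which 354 of all protein-coding genes (1.77%) had one, so nothing is read from this count.

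**Figure D3:**
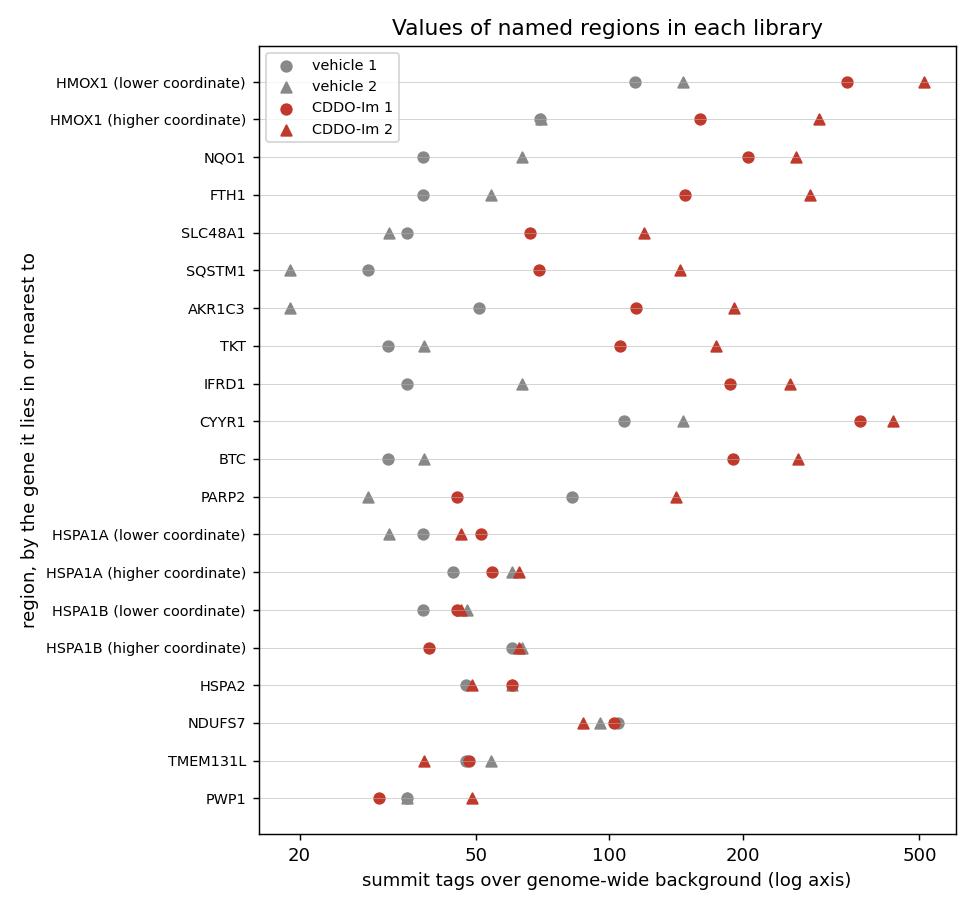
Each row is 1 region, named by the gene it lies in or nearest to, and each symbol is 1 library, with tags over genome-wide background on a log axis (vehicle grey, CDDO-Im red). At HMOX1, NQO1, FTH1, SLC48A1, SQSTM1, AKR1C3, TKT, IFRD1, CYYR1 and BTC the red symbols lie right of the grey ones, whereas they mix at PARP2, HSPA1A (higher coordinate), HSPA1B, HSPA2, NDUFS7, TMEM131L and PWP1.

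Several of the most enriched regions stood away from known NRF2 target genes. The region of CYYR1-AS1, chr21:26405641-26406168, lay 60318 bp from CYYR1, a gene of a cysteine and tyrosine rich membrane protein, and held 34 and 46 tags in vehicle and 122 and 160 tags in CDDO-Im. It was second to HMOX1 by its lowest fold enrichment, and its groups did not overlap, at a ratio of 3.19. Inside CDK6, a kinase of cell cycle entry, chr7:92809594-92810178 held 24 and 26 tags in vehicle and 84 and 141 tags in CDDO-Im, a ratio of 3.93. Inside HGD, a homogentisate oxidase of tyrosine breakdown, chr3:120678424-120678950 held 20 and 16 tags in vehicle and 68 and 106 tags in CDDO-Im, a ratio of 4.28. Each of these 3 regions had its CDDO-Im libraries far above its vehicle libraries.

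Further regions of this rank held similar values. At chr6:41917476-41917959, where BYSL, a ribosome assembly factor, and MED20, a Mediator subunit, overlap, 27 and 27 tags in vehicle stood against 79 and 142 tags in CDDO-Im. Inside MAGI2, a scaffold protein of cell junctions, chr7:79281406-79282001 held 21 and 23 tags in vehicle and 77 and 105 tags in CDDO-Im. The ratios were 3.54 and 3.69, and the vehicle replicates agreed more closely than the CDDO-Im replicates. Other regions of this rank lay outside the nearest gene, by which they are named. They included PLEKHS1 (ratio 3.30, 5418 bp away), EPS8L3 (3.58, 28431 bp) and CDH6, a cadherin of cell adhesion (3.24, 44414 bp). Likewise named were SV2C, a synaptic vesicle protein (3.68, 18849 bp), and AUTS2 (2.33), which was 873315 bp away.

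The ratio passed 5 at 10 of the 230 regions, and likewise at 10 of the 433 with dense megabases included. These 10 regions were not the most enriched in vehicle. Vehicle tags are the denominator of the ratio, so choosing by a high ratio itself favours low vehicle counts. The highest was at chr4:74682653-74683146, 61857 bp from BTC, the gene of the EGF-family growth factor betacellulin. It held 10 and 12 tags in vehicle and 63 and 98 tags in CDDO-Im, a ratio of 6.47 with pairwise ratios from 4.98 to 8.42. Near TAOK1, a stress kinase gene, chr17:29357863-29358310 held 7 and 10 tags in vehicle and 46 and 73 tags in CDDO-Im, a ratio of 6.25. The vehicle counts at both were at or below 12 tags, and 10 tags have an exact Poisson interval of 4.80 to 18.4.

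Inside POR, the reductase that passes electrons from NADPH to cytochrome P450 enzymes, chr7:75937783-75938311 held 14 and 9 tags in vehicle and 51 and 85 tags in CDDO-Im, a ratio of 5.29. Inside CLIP4, the region of the LOC124907747 window (chr2:29130196-29130716) held 16 and 12 tags in vehicle and 70 and 93 tags in CDDO-Im, a ratio of 5.26. Neither region had a vehicle library near its CDDO-Im libraries. ANKRD11, a chromatin regulator (ratio 5.93), ADAMTS12, a secreted metalloprotease (5.77), ZNF469 (5.75), MFAP1, a splicing protein (5.33), and TAF3, a TFIID subunit (5.33), each held a further region of this kind inside the gene.

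The regions of the remaining windows shown above differed in size. At LINC01270, chr20:50292461-50293054 held 41 and 23 tags in vehicle and 121 and 186 tags in CDDO-Im, a ratio of 4.41. At IFRD1, chr7:112422826-112423274 held 11 and 20 tags in vehicle and 62 and 94 tags in CDDO-Im, a ratio of 4.65. At LOC105378512, chr10:119595356-119595719 held 9 and 8 tags in vehicle and 12 and 29 tags in CDDO-Im, a ratio of 1.98, where CDDO-Im 1 was little above vehicle 1.

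At 8 regions of low local background the CDDO-Im libraries were not both higher, and heat shock genes were among them. HSPA1A, HSPA1B and HSPA2 encode HSP70 chaperones, and 5 of the 230 regions lay at them, with ratios from 0.801 to 1.40. HSPA1A at chr6:31816035-31816400 held 12 and 10 tags in vehicle and 17 and 17 tags in CDDO-Im, the 1 of the 5 that was higher in both. The other HSPA1A region, chr6:31817006-31817380, held 14 and 19 tags in vehicle and 18 and 23 tags in CDDO-Im, and its groups overlapped. HSPA1A and HSPA1B are near-identical copies, so reads may have been split between them and their values are uncertain.

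HSPA1B held 12 and 15 tags in vehicle and 15 and 17 tags in CDDO-Im at chr6:31828229-31828594, and 19 and 20 tags in vehicle and 13 and 23 tags in CDDO-Im at chr6:31829206-31829567. The lower of these regions had a ratio of 1.07 and the higher 0.801, with overlap in both. HSPA2 on chromosome 14 (chr14:64541873-64542239) held 15 and 19 tags in vehicle and 20 and 18 tags in CDDO-Im, a ratio of 1.01. With libraries scaled to equal medians over dense megabases, the ratio at the second HSPA1A region and the first HSPA1B region fell under 1. The 4 regions at HSPA1A and HSPA1B spanned 13533 bp and lay within their genes, 659 to 869 bp from a gene end.

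The region with the most vehicle tags among the 8 was inside NDUFS7, a gene of respiratory complex I. There chr19:1393089-1393462 held 33 and 30 tags in vehicle and 34 and 32 tags in CDDO-Im, so that the 4 libraries stood together at a ratio of 0.946 with pairwise ratios from 0.833 to 1.07. Without depth correction that ratio was above 1. Its lowest fold enrichment, 18.4, was exceeded at 3 of the 230 regions. TMEM131L, with a region 74 bp outside the gene (chr4:153466095-153466473), held 15 and 17 tags in vehicle and 16 and 14 tags in CDDO-Im. PWP1, a gene of ribosome production, had 11 and 11 tags in vehicle and 10 and 18 tags in CDDO-Im at chr12:107695808-107696177. Both overlapped between groups, at ratios of 0.846 and 1.10.

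PARP2 was a different case, since its libraries disagreed within each group. Its region chr14:20343285-20343775 held 26 and 9 tags in vehicle and 15 and 52 tags in CDDO-Im, with vehicle 1 above CDDO-Im 1. The ratio of 1.65 had pairwise ratios from 0.549 to 4.95, and the 4 summits spread over 111 bp. Over the 8 regions the median tags were 15 and 18 in vehicle and 15.5 and 20.5 in CDDO-Im, with a median ratio of 1.04.

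The 22 regions of high local background lay on 9 chromosomes, and 18 of them (81.8%) were over 50 kb from any protein-coding gene. Of these, 7 clustered within 15351 bp on chromosome 16 (46386309 to 46401659) and 5 within 17052 bp on chromosome 1 (125166820 to 125183871). Median tags were 122 and 129.5 in vehicle and 109.5 and 134 in CDDO-Im, far above the other regions. Median deposited fold enrichment was between 2.45 and 2.69 in the 4 libraries, against a median local background between 40.8 and 49.6 tags. The part of this background in the low ratios was not tested.

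The most tags of any of the 230 regions stood at chr1:125178823-125180893, with 333 and 291 in vehicle and 341 and 302 in CDDO-Im, a ratio of 0.930 with overlap. The nearest protein-coding gene, LINC02798 by its RefSeq symbol, was 3717139 bp away. Of the 9 regions lower in both CDDO-Im libraries, chr2:32916096-32916559, 30566 bp from LTBP1, a gene of a TGF-beta binding protein, held 177 and 173 tags in vehicle and 152 and 146 tags in CDDO-Im, a ratio of 0.768. Near ZNF33B on chromosome 10 (chr10:42099702-42100019) the values were 89 and 80 tags in vehicle and 63 and 81 tags in CDDO-Im, a ratio of 0.764. Without the division by background, 2 of the 22 regions were lower in both and 3 were higher in both, so the direction at these regions depended on the scaling.

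The summits of 1 region lay close together. The distance between the outermost of the 4 summits had a median of 36.5 bp, with quartiles of 21 and 54 bp, and was at most 50 bp at 166 regions and at most 100 bp at 215. It was 12 bp at the first HMOX1 region, 17 bp at CYYR1, 53 bp at NQO1 and 76 bp at FTH1. The gap between the summits of the 2 vehicle libraries had a median of 21 bp and that of the 2 CDDO-Im libraries 11 bp. Across groups the median over regions was 19 bp. That value rests on the median of 4 pairwise gaps in each region, so it is not the same measure as a gap of 1 pair. The rule required the peaks to overlap, and their widths, with medians from 252.5 to 406 bp in the 4 libraries, limit how far the summits can lie apart.

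Regions that were not higher also had close summits. Over the 8 low-background regions that were not higher the median spread was 10 bp, and at HSPA1B (chr6:31828229-31828594) it was 2 bp, the smallest of the 230. The widest, 1107 bp, was near DBNDD1, where the joined region was 1705 bp long. The next, 716 bp, stood in the chromosome 16 cluster at chr16:46389599-46391417.

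**Figure D4:**
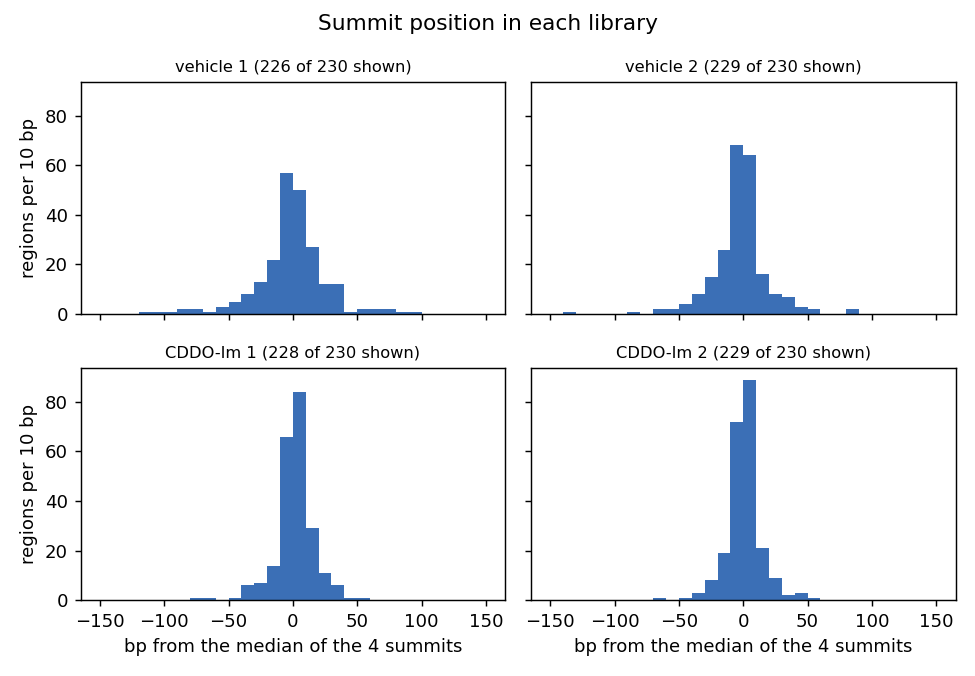
For each library the panel counts regions by the distance in bp of the library's summit from the median of the 4 summits (10 bp bins, 150 bp shown on either side). The peak around 0 is narrower with CDDO-Im, where 206 and 213 of the 230 summits lay within 25 bp, than with vehicle, where 170 and 192 did.

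Depth at the summit differed between these libraries, and its part in the narrower CDDO-Im distances was not tested. Across the 208 regions of low local background, log2 tags over background correlated at Pearson r = 0.60 between the vehicle libraries, 0.85 between the CDDO-Im libraries and 0.58 to 0.64 across groups. These are correlations over regions that share libraries and are given as a description.

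By position, 110 of the 230 regions (47.8%, exact 95% binomial interval 41.2% to 54.5%) lay inside a protein-coding gene by their summit. The share was 51.9% over the 208 regions of low local background, 44.4% over the regions of both CDDO-Im libraries and no vehicle library, and 45.0% over those with 1 vehicle library. Within 10 kb of either end of a gene lay 28.7% of the 230 (22.9% to 35.0%) and 30.3% of the 208 (24.1% to 37.0%). That share was 16.5% of the regions with no vehicle library (14.6% to 18.6%) and 21.0% of those with 1. Over all 7156 other regions outside dense megabases it was 17.7%. These comparison sets were not split by local background. Of the 120 regions outside protein-coding genes, 23 were inside a long noncoding RNA gene. These shares are set side by side with their intervals, with no test. The intervals take regions as independent, although some lie in clusters, so they may be too narrow.

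Of the 230 regions, 9 (3.91%, interval 1.80% to 7.30%) lay within 1000 bp of a gene end. The share was 2.66% (1.89% to 3.63%) of the regions with no vehicle library and 2.29% of all 7156 other regions outside dense megabases. The intervals of the 230 and of the regions with no vehicle library overlapped. The 9 were the 4 at HSPA1A and HSPA1B, and those at NQO1, PARP2, IFRD1, TMEM131L and CEBPZOS. The last lay 786 bp from an end of CEBPZOS, where that gene overlaps CEBPZ (chr2:37215212-37215650), and there 8 and 9 tags in vehicle stood against 19 and 40 tags in CDDO-Im, without overlap, a ratio of 2.93. One region overlapped a microRNA hairpin, MIR4435-2, with a ratio of 4.14.

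**Figure D5:**
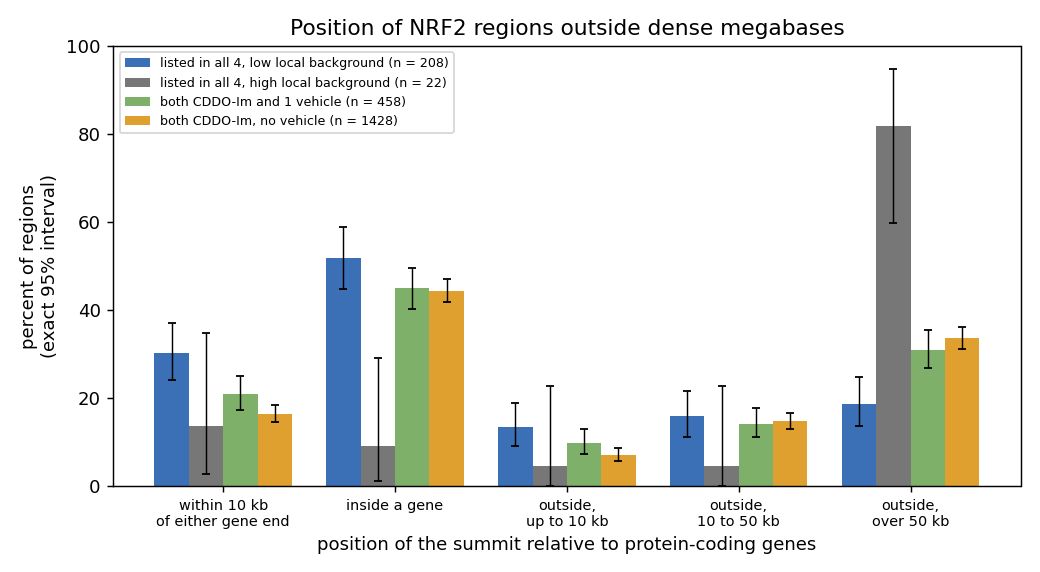
Bars give the percent of regions, with exact 95% binomial intervals that cover counting error only, by position of the summit relative to protein-coding genes, for 4 sets of regions outside dense megabases. The 208 regions of low local background reach 30.3% within 10 kb of a gene end, and 81.8% of the 22 regions of high local background lie outside and over 50 kb away.

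The regions made up 231 of the 1216 peaks outside dense megabases in vehicle 1 (19.0%) and 235 of 1276 in vehicle 2 (18.4%), but 230 of 3249 in CDDO-Im 1 (7.08%) and 235 of 4795 in CDDO-Im 2 (4.90%). Of the 100 peaks with the highest −log10 q outside dense megabases in each list, 88, 73, 73 and 78 fell in them, in the same order. Without the 22 regions of high local background these counts were 70, 56, 72 and 78. A strong peak in 1 list is more easily listed in the others, so the rule itself favours such peaks. At the edge of listing, the lowest −log10 q was 1.43 at PPM1H, a phosphatase gene, with 5 tags in vehicle 1, and the lists reach down to between 1.31 and 1.33. At the edge of the megabase limit, the fullest megabase that kept regions held 13 joined regions, and the emptiest one set aside with a region of all 4 libraries held 28.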

How the data were processed

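NRF2 ChIP-seq peaks were deposited for 4 libraries of HMC3 cells. Tools named in the submitters' processing notes are MACS2 2.2.7.1, BWA 0.7.17 and bcl2fastq 2.15.0, and hg38 is among the builds. Which control and threshold the authors used, and how duplicates were treated, counts as not given in the sources used here. The lists are per library. Each peak has the authors' fold enrichment (a ratio), the deposited −log10 p and −log10 q, a deposited score made from the q, and a summit offset.

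Tags and local background under each summit were solved from the deposited fold, (tags + 1) / (background + 1), and the deposited −log10 p, a Poisson upper tail (tolerance 0.001 plus 0.0002 of the value). Of 931 peaks in the regions, 904 had a single match; recovery was tested on simulated data. Library totals are not in the lists, so the lowest recovered background, between 0.315 and 0.367 tags, stood for depth. It also depends on the fragment length, likewise not given. Where a library had several peaks in a region, the one with the highest −log10 q was used.

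A region was higher when both CDDO-Im libraries exceeded both vehicle libraries. No test was run, since listing chose the regions and 2 against 2 cannot give an exact permutation p under 0.333. Alternatives changed the depth measure, the q and megabase limits, the overlap, and the libraries used. Genes, promoters and hairpins came from RefSeq (GRCh38.p14), which gives no exons here; distances were taken to either end of 19974 protein-coding genes. Regions were named by lowest fold enrichment, highest and lowest ratio, position at genes of the lists, clustering, and summit spread; the LINC01270, LOC105378512 and MIR4435-2 regions were named for their windows or hairpin, and of the named regions the text gives part. Members, lists and rules were chosen with earlier results of these data known. Scripts used Python 3.11.15, pandas 2.3.3, numpy 2.4.6, SciPy 1.17.1 and matplotlib 3.10.9.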

Additional observations from a re-analysis of the deposited data

Results flagged for a closer look

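Sequences other than chromosomes 1 to 22 and X were outside the rule. On them 343 joined regions were found, of which 42 were listed in all 4 libraries. Among these, 10 were higher in both CDDO-Im libraries and 12 were lower in both, with a median ratio of 0.982. Over the 433 regions listed in all 4 libraries on chromosomes 1 to 22 and X, the shares higher and lower were 47.8% and 15.7%. The regions on other sequences are given because no comparison above used them, and no direction is read from them.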

How the results depend on the processing

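The number of regions fell from 230 to 150 when each peak needed a −log10 q of at least 5 and to 57 at 10, and rose to 433 with no megabase limit. It ran from 234 to 546 when 1 library was left out, because fewer lists were required. The count higher in both CDDO-Im libraries was 200 beside the 230 regions. At those q limits it fell to 123 beside 150 regions and to 39 beside 57, so the share that was higher fell as well. Under the other alternatives this count was between 199 and 207, and it was 202 to 204 with 1 library left out. The count lower in both, 9, was 2 with the background over the shortest peak width, 2 with no depth correction, 3 with equal medians over dense megabases, 3 at a −log10 q of 10, 68 with no megabase limit, and 0 without the regions of high local background; it ran from 13 to 20 with 1 library left out. For the changes with scaling the cause was not tested. The median ratio, 3.21, was 1.20 with no megabase limit, 2.70 to 3.83 with 1 library left out, and 2.80 to 3.55 under the other alternatives. Without depth correction the ratio rose past 1 at 12 of the 23 named regions that lay under it, to between 1.00 and 1.09. These were 3 on chromosome 1, among them chr1:125183462 (1.00, from 0.903), 5 of the chromosome 16 cluster, DUX4, LOC124905368, LOC124905450 (1.01, from 0.909) and NDUFS7. It did so at 2 with the background over the shortest width and at 3 with the authors' fold, and fell under 1 at 3 with equal medians over dense megabases. The share within a distance of a gene end, 3.91% at 1000 bp, was 1.74% at 500 bp and 17.8% at 5000 bp. With the replicate number as a block, 202 regions were higher and 17 lower, and the median ratio was 3.10. The deviations of same-numbered libraries correlated at -0.04 over the 230 regions and -0.11 over the 208 of low local background. A shift shared by a whole library would not show in this correlation. Whether same-numbered libraries were handled together therefore cannot be told from it. Background over shortest width was added after the data were seen, in place of a planned product of the same values, which does not measure depth and was not run. Depth limits single values at vehicle medians of 11 and 13 tags.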
